A study of Mus musculus with 9 samples.

Results

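Carmil1 and 9 genes of actin filament capping and turnover were examined in murine microglia exposed to glioma-conditioned medium (GCM). Carmil1 was chosen by measured values, on these same arrays, as a gene at least 2-fold higher than in untreated cells and past the test in both GCM. The other 9 genes, Capza1, Capza2, Capzb, Capg, Cfl1, Twf1, Twf2, Vasp and Diaph1, were listed for their known roles. Of the 10 genes, 8 had a probe set with their symbol alone in the platform's annotation, 13 probe sets in all, of 17097 genes and 45037 probe sets on the array. Capza1 and Twf1 were not analysed here.

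The microglia came from cerebral cortices of C57BL/6J mice at P0-P2 and were shaken off a glial monolayer, so they are cultured cells of newborn brain. Whether a replicate number marks 1 cell preparation is not given. The SDs and p-values measure the spread between these samples that is left in the deposited values. Those values hold no difference between the means of the replicate numbers. A total of 3 samples per group were left without GCM (control), kept for 6 h in GCM of LN18 cells (GCM LN18), or kept for 6 h in GCM of U87-MG cells (GCM U87-MG). LN18 and U87-MG are established human glioblastoma lines, which makes each medium that of 1 line of another species. Each RNA was read on an array of the Affymetrix MG-430 PM strip system, and the values are log2 signals, so that a difference of 1 is a 2-fold change. Arrays have no read depth, and their number, 3 per group, limits the precision.

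Actin filaments grow at their barbed end, and growth stops when that end is capped. Capping protein, a heterodimer of an alpha and a beta subunit, binds barbed ends and keeps the branched networks of protrusions short and dense. CARMIL proteins are large leucine-rich repeat proteins at the membrane of the leading edge, which bind capping protein and weaken its hold on the filament. Microglia rely on such networks to survey tissue, migrate and engulf particles, and the study followed their shape by staining filamentous actin.

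For 100% of the probe sets, the mean over the 3 arrays that share a replicate number was equal for all numbers, within 1e-06. Differences between arrays of 1 number therefore carry what the values hold on treatment, and 6 residual degrees of freedom are counted by a model of groups without numbers, where the values hold 4. Results are given for the groups alone, and with the replicate number as a block ("when blocked") where this changed a call. SE is the standard error of a log2 fold change. Of 11 microglia markers 9 were analysed here, and their mean log2 signal lay between 8.34 and 8.50 on the control arrays. The brightest in control cells was C1qa, at 11.24. The dimmest was P2ry12, a purine receptor of resting microglia, at 3.44, close to the median of all probe sets. Over 31 markers of neurons, astrocytes, oligodendrocyte lineage, endothelium, mural cells and fibroblasts, the mean log2 signal lay between 3.17 and 3.19 on the control arrays, 3.16 and 3.17 in GCM LN18, and 3.16 and 3.17 with GCM U87-MG, and 0 passed limma's test in either medium (4 and 6 by limma's unadjusted p under 0.05).

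Carmil1 had rank 2 among 17097 genes by increase in GCM LN18, after Tgfbi, and rank 5 in GCM U87-MG. Its log2 signal (probe set 1451804_PM_a_at) was 3.40, 3.99 and 3.47 on the control arrays of replicates 1, 2 and 3. It was 5.93, 6.18 and 5.76 in GCM LN18, and 5.26, 4.42 and 5.36 with GCM U87-MG. Every array of either GCM lay above every control array, and the arrays of GCM LN18 lay above those of GCM U87-MG. Group means were 3.62 ± 0.32 (SD, n = 3) in control, 5.95 ± 0.21 (SD, n = 3) with GCM LN18, and GCM U87-MG gave 5.01 ± 0.52 (SD, n = 3). The log2 fold change was 2.33 in GCM LN18, or 5.04-fold, and 1.39 in GCM U87-MG, or 2.63-fold. These differences chose the gene, so they are given as a description, with no test. The control signal lay near the median of all probe sets (3.39 to 3.41 per array), so how far it stood above background is not known, and the folds are those of the signal as deposited.

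Within replicate numbers, Carmil1 in GCM LN18 exceeded its control by 2.53, 2.19 and 2.29 on the log2 scale. In GCM U87-MG the difference was 1.86 and 1.89 in replicates 1 and 3 and 0.43 in replicate 2. The array of replicate 2 thus set most of the spread in GCM U87-MG, and without it the log2 fold change was 1.69. With the replicate number as a block, Carmil1 met the threshold on the adjusted p behind its choice in GCM LN18, as 0.877% of all genes did. It missed this threshold in GCM U87-MG, where 8 genes, or 0.0468%, met it. The same values chose the gene, so this shows how its choice depends on the fit and is no test. The gene has 1 probe set in the annotation, so no other probe set could be set beside it, and no detection calls came with the values.

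The difference between the media was not itself a rule of the choice and was tested. It is taken from the differences against control that were, so the test is not independent of the choice of Carmil1. Its log2 signal was higher in GCM LN18 than in GCM U87-MG by 0.94 (SE 0.25, 95% confidence interval 0.38 to 1.50), and this did not pass the test over all genes (limma's adjusted p = 0.219). The difference was positive in 3 of 3 replicate numbers, at 0.67, 1.76 and 0.40. Over all genes, 0.00585% passed this test, which is 1 gene, H2-DMb2, a subunit of the class II chaperone H2-DM, named after its value was seen (log2 difference 0.34, limma's adjusted p = 0.0431). With the replicate block 0% passed (865 genes by limma's unadjusted p under 0.05). Of the 7 other genes measured here, 0 passed the test between the media by their brightest probe sets (0 by limma's unadjusted p under 0.05). This does not show that they were alike. A dimmer Capzb probe set, 1417259_PM_a_at, had a log2 difference of 0.11 in a fit of all probe sets (limma's unadjusted p = 0.0330, adjusted p = 0.388). For Capzb, Capg, Twf2 and Vasp, the signal in GCM LN18 was above that in GCM U87-MG in 3 of 3 replicate numbers. The share of all genes with 1 direction in 3 of 3 was not counted, so this is a description and shows no common difference.

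**Figure D1:**
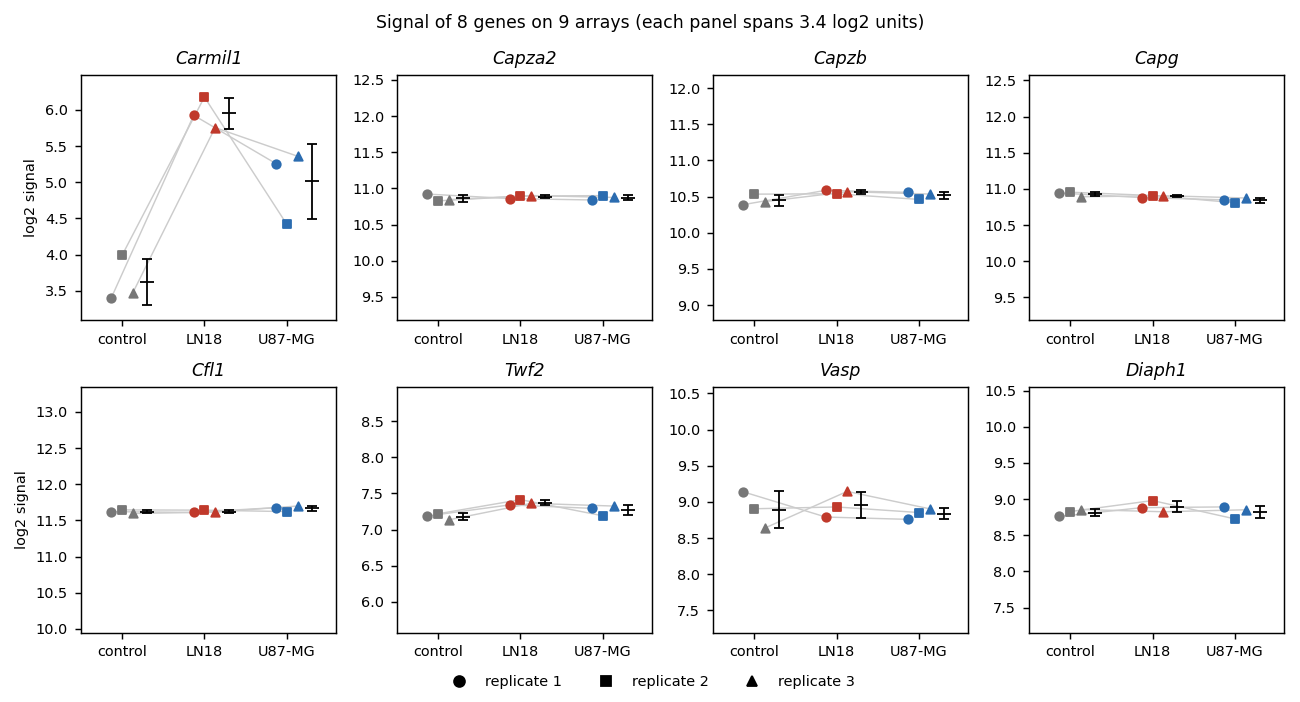
Log2 signal of Carmil1 and 7 other genes on the 9 arrays, with grey for control, red for GCM LN18, blue for GCM U87-MG, symbols and thin lines for the replicate numbers and black bars for the mean ± SD (n = 3). Each panel spans 3.4 log2 units. Carmil1 rises from a mean of 3.62 to 5.95 and 5.01 while the other genes stay nearly level, apart from the wide spread of Vasp. Carmil1 was chosen on these arrays for its rise, so this contrast was largely set by the choice.

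The genes of capping protein analysed here, Capza2 and Capzb, differed from control by much less than Carmil1. Carmil1 was chosen on these arrays for a large difference, so this contrast was largely set by the choice. Capza2, an alpha subunit, had a log2 signal (probe set 1423057_PM_at) of 10.92, 10.83 and 10.84 in control, 10.86, 10.89 and 10.90 in GCM LN18 and 10.84, 10.90 and 10.87 with GCM U87-MG. The groups overlapped in both comparisons. Its log2 fold change was 0.02 in GCM LN18 (95% confidence interval -0.07 to 0.11, limma's adjusted p = 0.820) and 0.01 in GCM U87-MG (95% confidence interval -0.08 to 0.10, limma's adjusted p = 0.944). With the replicate block the intervals were wider, from -0.11 to 0.15 and from -0.12 to 0.14. Another probe set of Capza2, 1423058_PM_at, had log2 fold changes of -0.01 and -0.03.

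Capzb, the beta subunit, had a log2 signal (probe set 1424168_PM_a_at) of 10.39, 10.53 and 10.43 in control, 10.59, 10.54 and 10.57 in GCM LN18 and 10.56, 10.46 and 10.54 with GCM U87-MG. The arrays of GCM LN18 lay just above those of control, while those of GCM U87-MG overlapped them. The log2 fold change was 0.11 in GCM LN18 (SE 0.05, limma's adjusted p = 0.215) and 0.07 in GCM U87-MG (limma's adjusted p = 0.506), short of the test in both. The other Capzb probe set, 1417259_PM_a_at, had log2 fold changes of 0.14 and 0.03. In replicate 2, where Carmil1 differed least in GCM U87-MG, both Capzb probe sets were slightly lower in GCM U87-MG than in control, with log2 differences of -0.07 and -0.05.

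Capg, a capping protein of the gelsolin family that caps filaments without severing them and is abundant in macrophages, had a log2 signal (probe set 1450355_PM_a_at) of 10.94, 10.96 and 10.89 in control, 10.88, 10.91 and 10.91 in GCM LN18 and 10.85, 10.81 and 10.88 with GCM U87-MG. The arrays of GCM U87-MG lay below those of control, by a small margin, and those of GCM LN18 overlapped them. The log2 fold change was -0.03 in GCM LN18 (limma's adjusted p = 0.674) and -0.09 in GCM U87-MG (limma's adjusted p = 0.273).

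Twf2, a twinfilin, binds actin monomers and capping protein, and its product and that of Carmil1 are known to bind overlapping sites on it. Its log2 signal (probe set 1431292_PM_a_at) was 7.19, 7.22 and 7.13 in control, 7.34, 7.41 and 7.36 in GCM LN18 and 7.29, 7.19 and 7.32 with GCM U87-MG. The arrays of GCM LN18 lay above those of control, and replicate 2 of GCM U87-MG lay among the control arrays. Twf2 rose in GCM LN18 by 0.19 on the log2 scale, or 1.14-fold (SE 0.05, limma's adjusted p = 0.0464, 0.240 when blocked). In GCM U87-MG the log2 fold change was 0.09 (limma's adjusted p = 0.358). The call in GCM LN18 was lost in 13 of 17 alternative analyses, including those without any 1 array other than GCM U87-MG replicate 2, and the log2 fold change lay between 0.17 and 0.21 over the 17.

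Cfl1, cofilin-1, severs aged filaments and returns monomers to the pool. Its log2 signal (probe set 1455138_PM_x_at) was 11.62, 11.65 and 11.60 in control, 11.61, 11.64 and 11.61 in GCM LN18 and 11.68, 11.62 and 11.70 with GCM U87-MG. The groups overlapped, with log2 fold changes of 0.00 (95% confidence interval -0.08 to 0.08, limma's adjusted p = 0.989) and 0.05 (95% confidence interval -0.04 to 0.13, limma's adjusted p = 0.564). The letter x in its name marks probes that may also match other sequences. The other probe set, 1448346_PM_at, had log2 fold changes of 0.08 and -0.00.

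Vasp and Diaph1 promote filament growth at barbed ends, Vasp as an elongation factor at the leading edge and Diaph1 as a formin. Vasp (probe set 1451097_PM_at) had a log2 signal of 9.14, 8.91 and 8.64 in control, 8.79, 8.93 and 9.15 in GCM LN18 and 8.76, 8.85 and 8.91 with GCM U87-MG. Its within-replicate differences had no common direction, at -0.35, 0.03 and 0.51 in GCM LN18 and -0.38, -0.05 and 0.27 in GCM U87-MG. The log2 fold changes of 0.06 (95% confidence interval -0.22 to 0.34) and -0.06 (95% confidence interval -0.34 to 0.23) were thus the least precise of the 8 genes, Carmil1 apart, and did not pass the test (limma's adjusted p = 0.827 and 0.859).

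Diaph1 had 3 probe sets. The brightest, 1454979_PM_at, gave 8.76, 8.83 and 8.86 in control, 8.88, 8.98 and 8.83 in GCM LN18 and 8.89, 8.73 and 8.85 with GCM U87-MG, and the groups overlapped. Log2 fold changes were 0.08 in GCM LN18 (limma's adjusted p = 0.469) and 0.01 in GCM U87-MG (limma's adjusted p = 0.958). The dimmer probe sets disagreed in sign, at -0.06 and -0.01 for 1445391_PM_at and 0.13 and 0.17 for 1421143_PM_at.

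Among these 7 genes, 1 passed the test in GCM LN18 (Twf2), where 5.23% of all genes did, and 0 passed in GCM U87-MG (1 by limma's unadjusted p under 0.05, Capg), where 1.51% did. With the replicate block, 0 of the 7 passed in either medium (1 and 0 by limma's unadjusted p under 0.05), where 0.877% and 0.0468% of all genes did. The arrays of GCM LN18 did not overlap those of control for Capzb and Twf2, or 2 of 7 genes, and those of GCM U87-MG did not for Capg, or 1 of 7, while 23.9% and 19.1% of all genes showed no overlap. These shares of 7 genes lie near the background. Their median log2 fold change was 0.06 in GCM LN18 and 0.01 with GCM U87-MG, beside -0.00 over all genes in both. For the brightest probe sets of Capza2, Capzb, Capg and Cfl1, the 95% confidence intervals of the log2 fold changes in both media lay between -0.17 and 0.22 for the groups alone, and between -0.21 and 0.26 with the replicate block. The dimmer Capzb probe set, 1417259_PM_a_at, reached higher in GCM LN18, from 0.04 to 0.23, and from 0.00 to 0.27 with the replicate block. It did not pass the test in a fit of all probe sets (limma's adjusted p = 0.128).

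**Figure D2:**
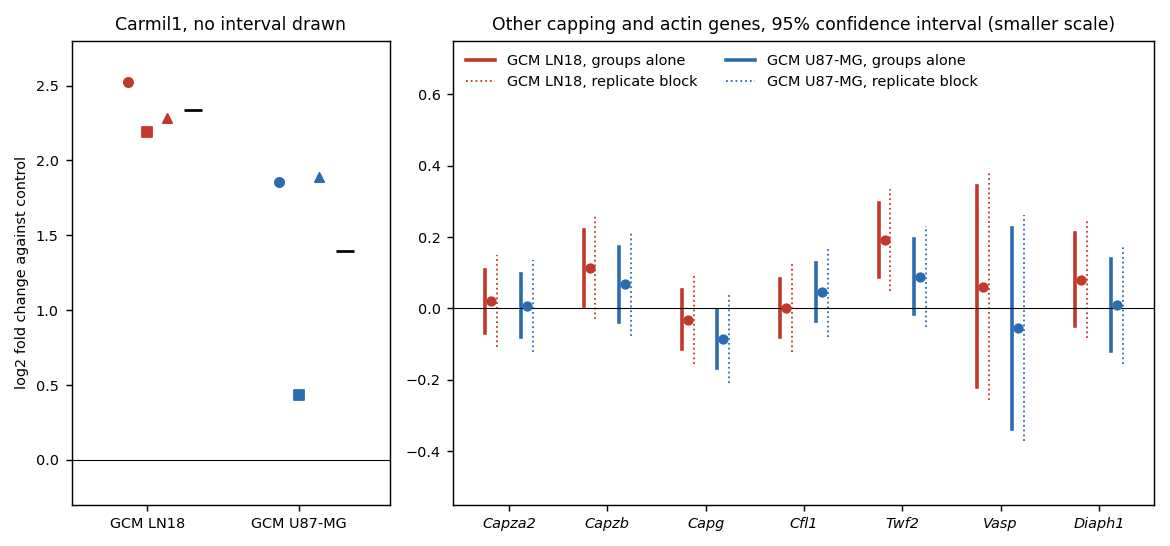
Log2 fold change against control in GCM LN18 (red) and GCM U87-MG (blue), at left for Carmil1 in each replicate number with the group value as a black bar, and at right for 7 other genes with 95% confidence intervals of the fit of groups alone (solid) and with the replicate block (dotted). The scales differ: Carmil1 lies between 0.43 and 2.53, and the group values of the other genes lie between -0.09 and 0.19.

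**Figure D3:**
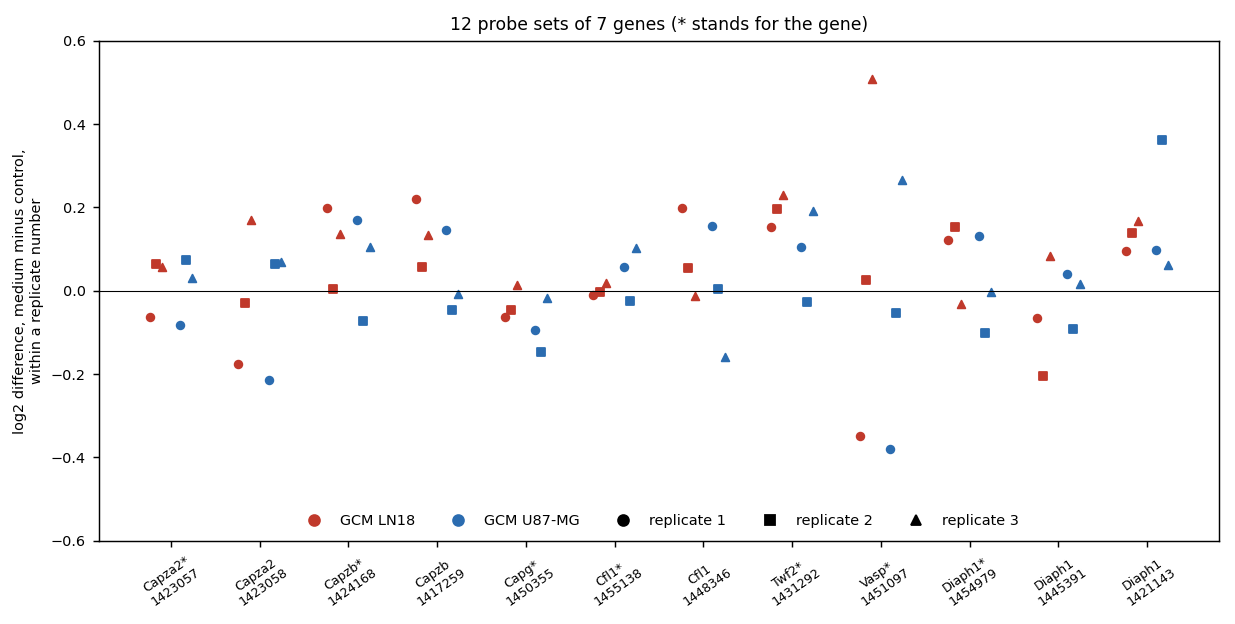
Log2 difference between each medium and control within a replicate number, for the 12 probe sets of the 7 genes other than Carmil1, with red for GCM LN18, blue for GCM U87-MG and symbols for the replicate number. The differences lie between -0.38 and 0.51, both of these from Vasp, and the probe sets of a gene can differ in sign, as for Capzb in replicate 3 of GCM U87-MG (0.10 and -0.01).

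Across the 9 arrays, the signal of Twf2 had a Pearson correlation of 0.956 with Carmil1 and that of Capzb one of 0.847 (Spearman 0.950 and 0.850), while Capza2 had 0.075 and Capg -0.247. The arrays share 3 treatment groups, and their replicate means are equal, so these correlations describe the arrays and are no test. The range of Twf2 was small, from 7.13 to 7.41, against 3.40 to 6.18 for Carmil1. Of all genes, the 5 with the highest Pearson correlation were Akap13 (0.992), Tspan14 (0.989), 1600010M07Rik (0.986), Cpd (0.985) and Ly6g6e (0.983). Akap13 encodes an anchoring protein of signalling enzymes, and its log2 signal was 8.36, 8.45 and 8.39 in control, 8.81, 8.90 and 8.78 in GCM LN18 and 8.76, 8.57 and 8.75 with GCM U87-MG. The 2 with the lowest correlation were Lmo2 (-0.996) and Washc5 (-0.988), the latter a subunit of the WASH complex, which builds branched actin on endosomes and contains capping protein. Washc5 had a log2 signal of 9.60, 9.51 and 9.56 in control, 9.27, 9.24 and 9.32 in GCM LN18 and 9.32, 9.44 and 9.31 with GCM U87-MG. Every treated array lay below every control array. Washc5 was picked for its correlation with Carmil1, whose treated arrays all lay above control. This lack of overlap was thus largely set by the choice and is a description only. Among all genes, 23.9% had no overlap between control and GCM LN18 arrays, and 19.1% had none between control and GCM U87-MG arrays.

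Of 9 other regulators of capping protein, 0 rose in either medium. GCM LN18 had 0 higher and 1 lower (all genes 5.23%), and 0 passed in GCM U87-MG (all genes 1.51%; 2 of the list by limma's unadjusted p under 0.05). The paralog Carmil2 had a mean log2 signal of 4.62 in each of the groups and log2 fold changes of 0.00 (limma's adjusted p = 0.993 and 0.996). The lower gene was Washc2, the WASH complex subunit that binds capping protein. Its log2 signal was 10.20, 9.98 and 10.11 in control, 9.75, 9.74 and 9.75 in GCM LN18 and 9.79, 10.01 and 9.88 with GCM U87-MG, so the arrays of GCM LN18 lay below those of control and those of GCM U87-MG overlapped them. In GCM LN18 Washc2 fell by 0.35 on the log2 scale (SE 0.07, limma's adjusted p = 0.0206, 0.104 when blocked), and it had a log2 fold change of -0.20 in GCM U87-MG (limma's adjusted p = 0.174, and 0.0479 as the mean of its probe sets).

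Of 17 other genes that cap or sever filaments, among them gelsolin (Gsn), adducins and tropomodulins, 0 passed in either medium (3 and 4 by limma's unadjusted p under 0.05). The largest difference was that of Tmod1, which caps pointed ends, at -0.46 in GCM LN18 (limma's adjusted p = 0.0800) and -0.31 in GCM U87-MG (limma's adjusted p = 0.271). The median log2 fold change of this list was -0.05 in GCM LN18 and -0.08 with GCM U87-MG.

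Formins Fhod1 and Inf2 were higher in both media. Fhod1, which bundles filaments, had a log2 signal of 6.90, 6.95 and 6.88 in control, 7.46, 7.39 and 7.37 in GCM LN18 and 7.29, 7.32 and 7.40 with GCM U87-MG, with no overlap between treated and control arrays. It rose by 0.50 on the log2 scale (SE 0.04, limma's adjusted p = 0.00113) in GCM LN18 and by 0.43 (limma's adjusted p = 0.00450, 0.0838 when blocked) in GCM U87-MG. Inf2, a formin that also severs filaments, had 6.85, 6.96 and 6.75 in control, 7.59, 7.69 and 7.51 in GCM LN18 and 7.45, 7.23 and 7.62 with GCM U87-MG. It rose by 0.74 (SE 0.10, limma's adjusted p = 0.00438) in GCM LN18 and by 0.58 (limma's adjusted p = 0.0304, 0.174 when blocked) in GCM U87-MG. As the mean of its probe sets, it rose by 0.53 in GCM LN18 and by 0.38 in GCM U87-MG. Of 13 genes of formins and Ena/VASP proteins, GCM LN18 had 2 higher and 1 lower (all genes 5.23%), GCM U87-MG 2 and 0 (all genes 1.51%). The lower one was Evl, an Ena/VASP protein, at -0.20 (limma's adjusted p = 0.0349, 0.214 when blocked), or -0.11 (limma's adjusted p = 0.160) as the mean of its probe sets. The median of the list was -0.04 in GCM LN18 and 0.03 with GCM U87-MG.

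Of 23 genes of filament turnover and monomer binding, GCM LN18 had 3 higher and 0 lower (all genes 5.23%), and 0 passed in GCM U87-MG (all genes 1.51%; 6 of the list by limma's unadjusted p under 0.05). Coro1a, a coronin of blood cells and microglia, rose by 0.33 (limma's adjusted p = 0.0348, 0.148 when blocked). Ssh2, a phosphatase that activates cofilin, rose by 0.38 (limma's adjusted p = 0.0393, 0.148 when blocked), and Coro7 by 0.15 (limma's adjusted p = 0.0454, 0.294 when blocked). The log2 fold changes in GCM U87-MG were 0.21 for Coro1a, 0.32 for Ssh2 and 0.04 for Coro7. The median of the list was 0.03 in GCM LN18 and 0.02 with GCM U87-MG.

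Among 21 genes of the Arp2/3 complex and its activators, GCM LN18 had 1 higher and 1 lower (all genes 5.23%), GCM U87-MG 0 and 1 (all genes 1.51%), counts near the background, and both genes encode subunits of the WAVE complex, which switches on Arp2/3. In GCM LN18 Cyfip2 fell by 0.60 on the log2 scale (limma's adjusted p = 0.0111, 0.0589 when blocked) and by 0.50 in GCM U87-MG (limma's adjusted p = 0.0493, 0.227 when blocked). Its log2 signal was 7.35, 7.23 and 7.28 in control, 6.73, 6.52 and 6.80 in GCM LN18 and 6.67, 7.01 and 6.68 with GCM U87-MG, so the treated arrays lay below the control arrays. Nckap1l, the subunit of blood cells, rose by 0.35 in GCM LN18 (limma's adjusted p = 0.0230, 0.110 when blocked) and had a log2 fold change of 0.31 in GCM U87-MG (limma's adjusted p = 0.0673). The median of the list was 0.05 in GCM LN18 and 0.05 with GCM U87-MG.

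Of 24 genes of actin, crosslinkers and myosins, 2 were higher in each medium and 0 lower (all genes 5.23% and 1.51%), with medians of 0.06 and 0.06. Pls3, which bundles filaments, had a log2 signal of 8.22, 8.53 and 8.30 in control, 9.02, 9.07 and 9.02 in GCM LN18 and 9.01, 8.65 and 8.93 with GCM U87-MG. Pls3 rose by 0.69 (limma's adjusted p = 0.00648) in GCM LN18 and by 0.51 (limma's adjusted p = 0.0466, 0.212 when blocked) in GCM U87-MG. Myh9, the heavy chain of a non-muscle myosin II, rose by 0.43 (limma's adjusted p = 0.0206, 0.0903 when blocked) and 0.41 (limma's adjusted p = 0.0485, 0.231 when blocked).

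**Figure D4:**
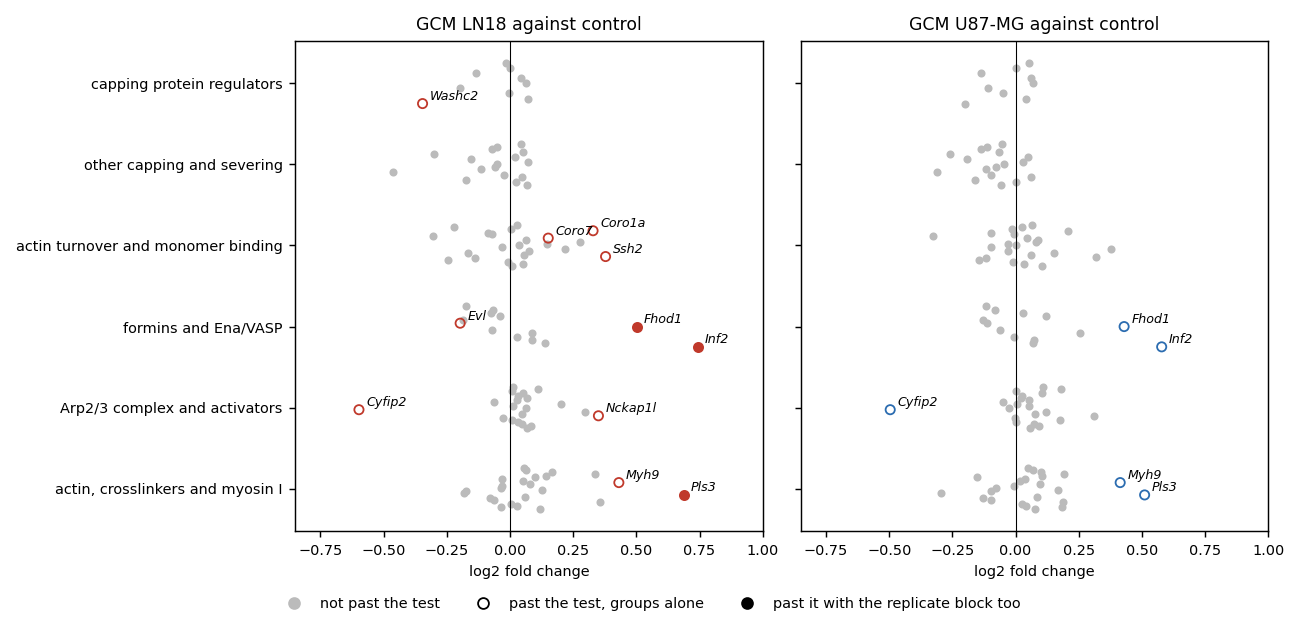
Log2 fold change against control of 107 genes in 6 lists of actin regulation, at left in GCM LN18 and at right in GCM U87-MG, with grey for genes not past the test, open circles for those past it for the groups alone and filled circles for those past it with the replicate block too. Fhod1, Inf2 and Pls3 are filled in GCM LN18, and no gene is filled in GCM U87-MG.

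Over the 107 listed genes, GCM LN18 had 8 higher and 3 lower, or 10.3% beside 5.23% of all genes, and 4 were higher and 1 lower in GCM U87-MG, or 4.67% beside 1.51%. With the replicate block these were 3 and 0 in GCM LN18, namely Fhod1, Inf2 and Pls3, and 0 and 0 in GCM U87-MG (16 by limma's unadjusted p under 0.05), beside 0.877% and 0.0468% of all genes. The largest change in size among them was 0.74, that of Inf2. The listed genes were brighter than all genes, with a mean log2 signal of 7.27 beside 5.07 in control. With dim genes left out, 948 of 10652 genes passed in GCM LN18 and 259 of 10652 in GCM U87-MG. Of the listed genes, 13 and 5 passed there. The shares of all genes above are thus not matched for signal. The lists were chosen with earlier results of these data known, so their higher shares are a description only. Markers of microglia moved in the same samples: 5 of 9 were higher in GCM LN18 (2 when blocked) and 2 with GCM U87-MG (1 when blocked), beside 5.23% and 1.51% of all genes, with a mean log2 signal of the list between 8.34 and 8.50 in control, 8.83 and 8.86 in GCM LN18 and 8.67 and 8.86 with GCM U87-MG. Of 6 border macrophage markers, 0 were higher and 1 was lower in GCM LN18, Mrc1, at -0.25 (limma's adjusted p = 0.0375, 0.182 when blocked), and 0 passed in GCM U87-MG (2 by limma's unadjusted p under 0.05). Their part in the values of the actin genes was not tested, and in bulk samples fewer cells of a type and less RNA per cell cannot be told apart.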

How the data were processed

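The authors deposited log2 signals for 45141 probe sets of 9 Affymetrix MG-430 PM strip arrays, normalized before deposit, with array medians of 3.39 to 3.41. The submitters' notes name limma, and the methods name R and Bioconductor. For these arrays a legend refers to the methods for preprocessing, where RMA is named in a passage on public arrays of other studies. Whether it was used here is not given in the sources used here. Groups were taken from the sample titles.

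Here 104 control probe sets were left out. Of the other 45037, 28898 had 1 symbol, 551 had several and 15588 were unnamed here. Symbols were updated by gene identifier (28689 matched), and 17097 genes were each represented by their brightest probe set over all arrays. The 9 arrays were fitted together in limma 3.58.1 (R 4.3.3) by group alone. Tests were two-sided, and a gene passed where its p, adjusted over all genes by Benjamini-Hochberg, was under 0.05. The fits were also run on simulated data with 2-fold changes, larger than any change of the listed actin genes. The only rule there was that most of these be recovered, so it does not bear on smaller changes or on false calls. The fit of the 9 arrays was repeated with the replicate number as a block, and under the alternatives described at the end. The medians of lists are over all their measured genes.

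The members and the gene lists were chosen with earlier results of these data known. Named are the members. Of each actin list, at most 3 higher and 3 lower genes past the test in either medium (or its largest change) are named. So are the 5 genes with the highest and the 2 with the lowest Pearson correlation with Carmil1. One list of actin regulators is not reported here.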

Additional observations from a re-analysis of the deposited data

How the results depend on the processing

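Alternatives were the replicate block, trend and robust estimation, leaving out dim genes (mean log2 signal up to 3.40), the mean of probe sets, a fit of all probe sets, quantile normalization, median centring, only the groups compared, and each array left out. Of the 7 genes besides Carmil1, 1 passed in GCM LN18 and 0 with the replicate block, trend and robust estimation, all probe sets, quantile normalization or only the groups compared, and between 0 and 1 without 1 array. In GCM U87-MG and between the media, 0 passed in each alternative. Of the 107 listed actin genes, 11 passed in GCM LN18, 3 with the replicate block and between 8 and 13 in the others with all arrays. Without 1 array there were between 4 and 10, with 4 when GCM LN18 replicate 1, 2 or 3 was left out, 6 when control replicate 1 was and 7 when control replicate 3 was. For GCM U87-MG the count was 5, 0 with the replicate block, 2 with all probe sets and 1 with only the groups compared. Without 1 array there were between 1 and 4, with 1 when control replicate 1, GCM LN18 replicate 1, 2 or 3 or GCM U87-MG replicate 1 or 3 was left out, and 2 when control replicate 2 or 3 was. The causes were not tested, and leaving out 1 array changes both the number of arrays and which arrays are fitted.

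Fhod1, Inf2 and Pls3 passed in GCM LN18 in 17 of 17 alternatives, Cyfip2 in 16 and Myh9 in 13. In GCM U87-MG, Fhod1 passed in 16, Inf2 and Pls3 in 7, Myh9 in 5 and Cyfip2 in 4. The log2 fold change of Carmil1 lay between 2.22 and 2.52 in GCM LN18 and between 1.22 and 1.69 in GCM U87-MG. Values short of the test changed sign: Vasp lay between -0.07 and 0.18 in GCM LN18 and between -0.18 and 0.07 in GCM U87-MG, where Diaph1 lay between -0.03 and 0.06 and Capza2 between -0.01 and 0.04. Cfl1 lay between -0.01 and 0.04 in GCM LN18. How far each signal stands above background is not known without detection calls.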
